A study of Mus musculus with 29 samples.

Results

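The clustered histone genes, taken as all gene symbols that start with Hist, a digit and the letter h, were 70 of the 55376 symbols counted by RNA-seq in mouse hematopoietic stem cells (HSCs), the bone marrow cells that renew themselves and give rise to all blood lineages. By symbol, 6 encode linker histone H1, 20 encode H2A, 19 encode H2B, 12 encode H3 and 13 encode H4. In the annotation, 56 lay in the Hist1 cluster on chromosome 13, 10 in Hist2 on chromosome 3, 3 in Hist3 on chromosome 11 and 1, Hist4h4, on chromosome 6. The annotation calls 67 of them protein-coding and 3 pseudogenes (Hist1h2aj, Hist1h2al and Hist3h2bb-ps).

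HSCs came from young and old wild-type mice (YWT, 4 libraries; OWT, 4 libraries) and from young and old mice without GADD45B, a stress-inducible protein linked to DNA demethylation (YKO, 4 libraries; OKO, 7 libraries). HSCs are defined in the study as lineage-negative cells that carry c-Kit, Sca-1 and CD150 and lack CD34 and Flk2. The labels write the genotype as WT or Gadd45KO and the age only as young or old, and they name neither the allele nor the part of Gadd45b that was removed. They give the sex of every library as female, while the study's methods and sample list name both sexes. The titles of all OWT libraries and of OKO4 to OKO7 carry the prefix IB15 and the other 11 do not, so that age in wild-type HSCs and prefix cannot be told apart. The study's sample list also puts OKO1 to OKO3 and OKO4 to OKO7 in different batches, the former together with YWT and YKO. Nothing in the labels says that 2 libraries of a group came from separate mice, and p-values measure the spread between these libraries.

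Library totals ran from 22197555 to 77970627 counts. Counts of Gadd45b itself remained in every library, at 7.34 to 17.5 CPM in YWT and 5.14 to 14.3 CPM in YKO, ranges that overlap, and at 10.1 to 15.5 CPM in OWT and 2.84 to 6.94 CPM in OKO. CPM is the count scaled to a library of 1000000 counts, after correction by the trimmed mean of M-values (TMM). Gadd45b therefore did not check the label of the young libraries, and each library is taken by its label throughout. The 10 HSC markers, among them Kit, Ly6a, Slamf1, Procr, Mecom, Hlf, Fgd5 and Hoxb5, summed to between 2056 and 4313 CPM per library. Summed CPM of the 1971 olfactory and vomeronasal receptor genes, which HSCs are not known to use, was highest in OKO1 (1502 CPM), OKO2 (790), YKO2 (676) and YWT4 (623), against 129 to 508 CPM in the other libraries.

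Histones are the proteins around which DNA is wrapped: H2A, H2B, H3 and H4 form the core of the nucleosome, and H1 sits on the DNA between cores. The clustered genes supply most new histone while DNA is copied in S phase, and their mRNAs end in a conserved stem-loop in place of a poly(A) tail. The stem-loop-binding protein SLBP holds that hairpin from processing to translation and decay, and NPAT drives transcription of the clusters when cells enter S phase. The replacement histones, such as those encoded by H3f3a and H3f3b, come from single genes outside the clusters with ordinary polyadenylated mRNAs. HSCs are for the most part quiescent. The libraries were made with the SMART-Seq v4 kit, which primes first-strand synthesis from poly(A), so that the counts follow the transcripts the kit could prime.

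The stem-loop defines these mRNAs, and it is shown for the members on which the results turn and for the leading member of each histone type. Each line is the sense strand, 5′ to 3′, with 7 bases on either side and the 16-base stem-loop in capitals, read from the GRCm38.p6 reference (mm10) downstream of the stop codon.
Hist1h1e, chr13:23621775-23621804, minus strand: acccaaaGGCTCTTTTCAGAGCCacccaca
Hist1h1c, chr13:23739505-23739534, plus strand: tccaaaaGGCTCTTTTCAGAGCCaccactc
Hist1h2ae, chr13:23570661-23570690, minus strand: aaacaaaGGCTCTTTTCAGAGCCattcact
Hist1h2ab, chr13:23751565-23751594, plus strand: aaacaaaGGCTCTTTTCAGAGCCacccaca
Hist1h2bc, chr13:23684640-23684669, plus strand: ttccaaaGGCTCTTTTCAGAGCCacccact
Hist1h3e, chr13:23561896-23561925, minus strand: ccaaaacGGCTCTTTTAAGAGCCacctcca
Hist1h4d, chr13:23581943-23581972, plus strand: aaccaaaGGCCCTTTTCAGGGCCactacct
Hist1h4i, chr13:22040959-22040988, minus strand: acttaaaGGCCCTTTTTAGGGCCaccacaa
Among the 67 protein-coding members, 64 carried such a hairpin within 200 bases of the stop codon, and Hist2h2be, Hist1h3g and Hist1h4a did not. The form shown for Hist1h2ae was found in 41 members of H1, H2A, H2B and H3 and in no H4 member. Of the H4 members, 8 had the hairpin of Hist1h4d, whose arms differ from it, and 2, Hist1h4i among them, had those arms around another loop.

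The members also differ in how far the annotation extends past the stop codon, counted in genomic bases over the longest transcript, and a split on that length is used below. It was set at 150 bases after the values were known. In 28 protein-coding members the annotated end was at least that long, and 18 of these held the polyadenylation hexamer AATAAA. In the other 39 it was shorter, and none of these held AATAAA. The long class includes Hist1h1c, Hist1h1e, Hist1h2ae, Hist1h2bc, Hist1h4d, Hist1h4i and Hist2h2be, and the short class includes Hist1h2ab, Hist1h2ao and Hist1h4h. In 13 members the annotation stops at the stop codon.

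Every histone type was counted, at levels that differed widely between members. Of the 70 members, 7 averaged at least 10 CPM over the 19 libraries, 31 averaged 1 to 10 CPM, 25 averaged 0.1 to 1 CPM and 7 lay below 0.1 CPM. Between 60 and 67 members had a count in each library, and together the members took 0.0178% to 0.0509% of the counts. The 5 highest, Hist1h4d, Hist1h2ae, Hist1h1e, Hist1h1c and Hist1h2bc, gave 56.3% of the summed level. Hist2h3c1 was at 0 in all 19 libraries, and its near copy Hist2h3c2 was low, so that reads shared by the pair may have been lost or split. The filter on low counts kept 63 members for testing and left out Hist1h1t, Hist1h2aa, Hist1h2al, Hist1h2ba, Hist1h2bq, Hist2h2aa1 and Hist2h3c1, of which Hist1h1t, Hist1h2aa and Hist1h2ba are known as testis forms.

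**Figure D1:**
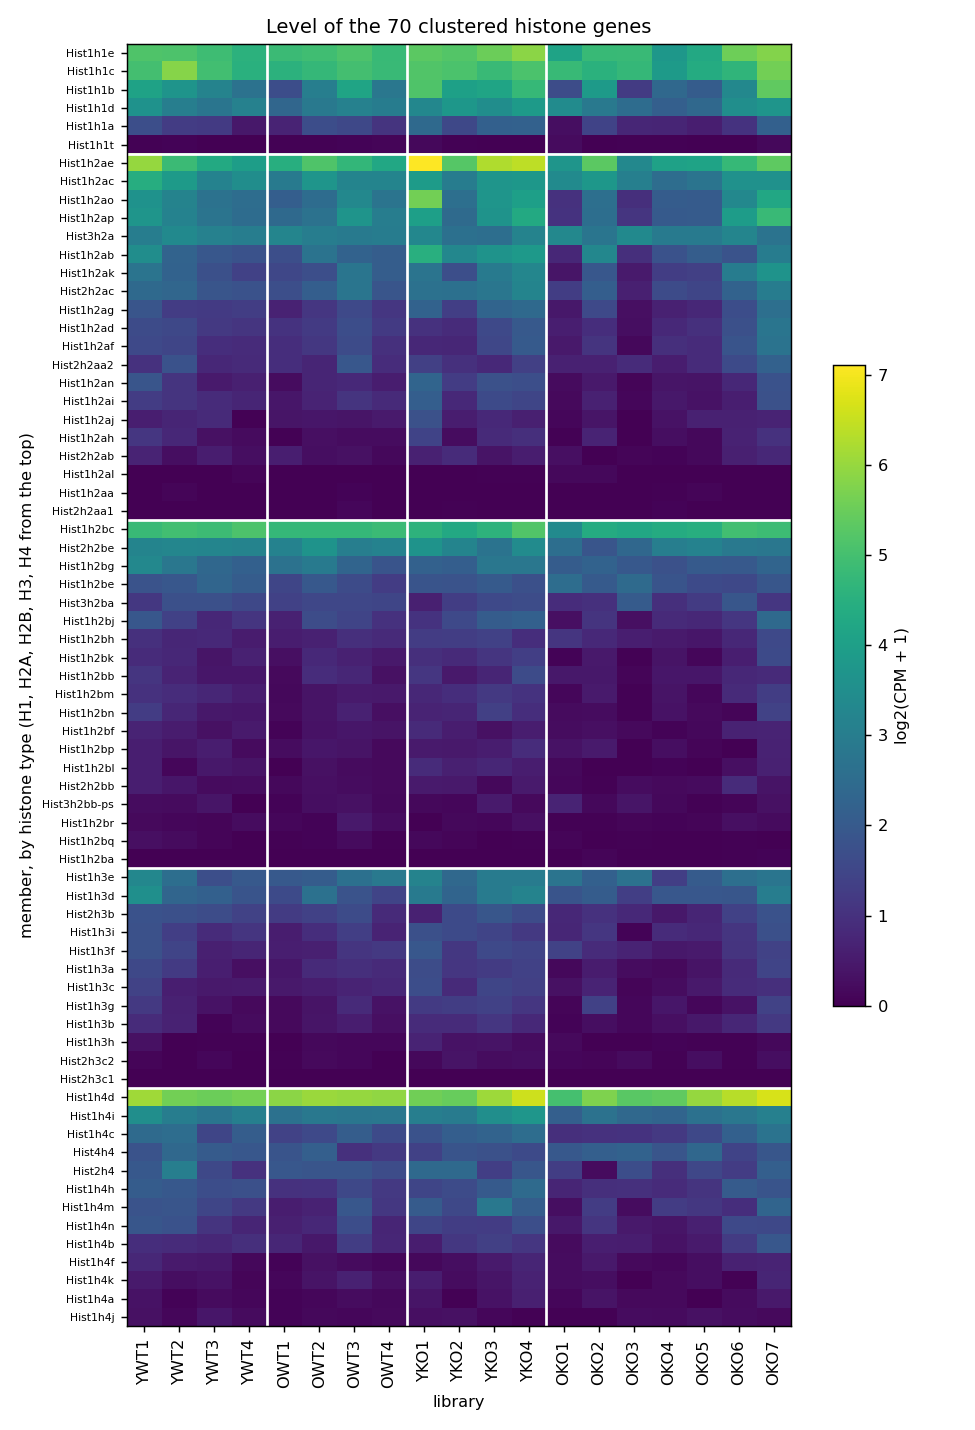
Level of each of the 70 members (rows, by histone type and mean level) in each of the 19 libraries (columns, by group), as log2(CPM + 1). White lines part the types and the groups. A few bright rows, led by Hist1h4d and Hist1h2ae, stand over many members near 0, and the columns OKO1 and OKO3 are dark for most members other than those bright rows.

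Per kilobase of annotated exon, the order of members changed. Hist1h2ae (53.5 CPM per kilobase, averaged over all libraries) and Hist1h4d (51.5) led, followed by Hist1h2bc (21.6), Hist1h2ao (19.01), Hist1h1c (18.6), Hist1h2ap (17.9), Hist1h1b (17.1) and Hist1h1e (16.9). The ranges over libraries of these last 6 overlapped. Hist1h1d, among the 10 highest members in CPM, came to 1.09 CPM per kilobase over an annotated length of 7425 bases. In H3 the leading members were Hist1h3e (5.82 CPM per kilobase), Hist1h3d (3.38), Hist2h3b (3.18) and Hist1h3i (3.05). H3 was the lowest of the 5 types in summed CPM in every group.

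The levels of near-identical members are uncertain. In 32 members over 50% of the 50-base stretches also occur in another member, among them Hist1h2ao, which shares 93.5% with Hist1h2ap. Hist1h1e and Hist1h2be overlap on the same strand, and all 20 H2A members overlap an annotated gene on the other strand. Whether the counting used strand is not given in the sources used here, so reads of such partners cannot be told apart.

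Summed over all 70 members, the level was 246, 262, 354 and 434 CPM in the YWT libraries, 238, 264, 304 and 328 CPM in OWT, and 310, 434, 545 and 545 CPM in YKO. In OKO it ran from 174 through a median of 220 to 529 CPM. Means were 324 ± 87.6 (SD, n = 4), 283 ± 40.1 (n = 4), 458 ± 112 (n = 4) and 273 ± 130 CPM (n = 7) in this order. YKO had the highest mean, and 2 of its 4 libraries lay above every YWT library and 3 above every OWT library, but the ranges of all 4 groups overlapped. OKO was the most spread group: after TMM, OKO1, OKO3, OKO4 and OKO5 lay below every library of the other groups, and OKO7 lay above every YWT and OWT library. As a share of library counts, OKO4 (0.0178%) and OKO5 (0.0188%) remained lowest, but OKO1 (0.0318%) lay above every OWT library (0.0216% to 0.0307%). On that scale OKO3 (0.0263%) lay above OWT1 (0.0216%) and OWT4 (0.0257%), and OKO7 (0.0420%) lay below YWT1 (0.0424%). These values are descriptions, and the log2 ratio of group means was -0.19 in OWT vs YWT, 0.50 in YKO vs YWT, -0.75 in OKO vs YKO and -0.05 in OKO vs OWT. The last of these turned positive, at 0.14 with upper-quartile scaling and 0.15 with library totals alone. Fewer cells making these mRNAs and less mRNA per cell cannot be told apart in such bulk libraries.

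Of the 5 types, H2A had the largest ratios of these sums in YKO vs YWT and in OKO vs YKO. H2A summed to 53.9 to 148 CPM in YWT, 55.2 to 88.0 CPM in OWT, 82.8 to 274 CPM in YKO and 31.5 to 154 CPM in OKO. Its log2 ratio was 0.99 in YKO vs YWT and -1.30 in OKO vs YKO, against -0.08 and -0.43 for H2B, 0.44 and -0.64 for H1, 0.46 and -0.94 for H3 and 0.22 and -0.27 for H4. These ratios are descriptions without a test, and their signs were the same under both other scalings. H2A made up 36.8% ± 9.9 (SD, n = 4) of the summed level in YKO and 24.7% to 26.1%, by group mean, in the other groups.

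**Figure D2:**
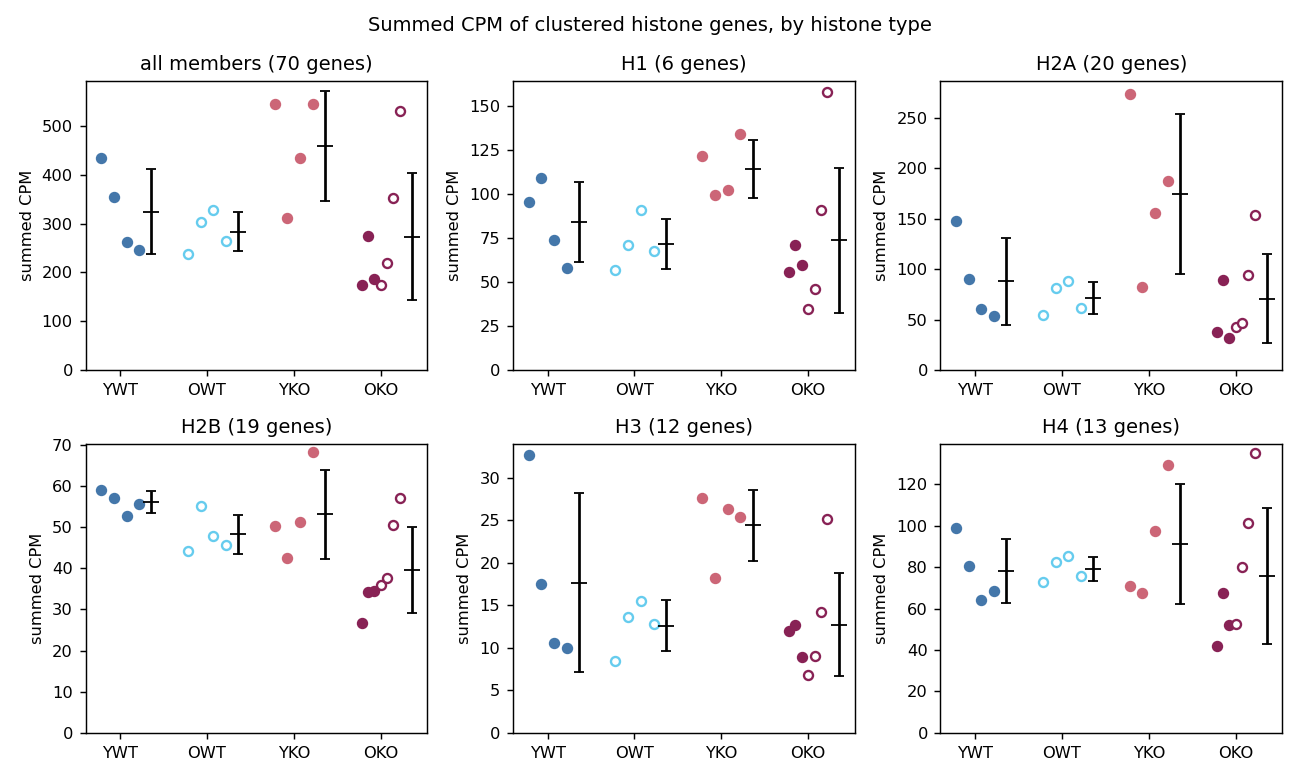
Summed CPM (vertical axis) of all 70 members and of each histone type in each library, by group (horizontal axis). Points are libraries, open where the title carries the prefix IB15, and the bar beside them is the group mean with its SD. YKO reaches highest in H2A, at 274 CPM in YKO1, and OKO7 is the highest OKO library in every panel.

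The effect of age in knockout HSCs was asked by OKO vs YKO, the comparison in which the members' median lay farthest from that of all genes. Hist1h2ae, an H2A gene of 704 bases on the minus strand (ENSMUSG00000069272.6, chr13:23570517-23571220, a single exon), decreased in OKO. Its level was 37.0, 76.2, 84.4 and 137 CPM in the YKO libraries, and in the 7 OKO libraries it ran from 9.03 through a median of 16.6 to 39.5 CPM. OKO2 and OKO7, at 38.99 and 39.5 CPM, lay above YKO2, and the other 5 OKO libraries lay below every YKO library. The log2 fold change was -1.89 ± 0.41 (SE), with an edgeR adjusted p = 0.0208. A gene was called where it passed 0.05 in adjusted p and 1.5 in fold change, and Hist1h2ae was the 1 member of 63 so called, against 0.692% of all 33690 genes called lower and 0.597% called higher. The number of members called depended on single libraries: it was 0 without YKO1 or without OKO4 and 0 in a fit of these groups alone, 2 without OKO2 and 15 without OKO7, all lower. The share of all genes called in these fits is not given here, so the counts show only how the calls moved. DESeq2 called 5 members lower, beside 2.6% of all genes, where 3.7% were higher. Hist1h2ae was lower in OKO in all 21 alternative fits and passed in 18.

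Below that threshold the members leaned to lower values in OKO. Of the 63 tested, 55 had a log2 fold change below 0, beside 38.2% of all genes, and their median was -0.88, beside 0.23 over all genes. An unadjusted p under 0.05 was reached by 19 members, all lower, or 30.2% of them, where 7.93% of all genes were lower at that level. By type, 5 of 5 tested H1 members, 14 of 17 H2A, 14 of 17 H2B, 11 of 11 H3 and 11 of 13 H4 lay below 0. The median over all genes moved to 0.43 with upper-quartile scaling and 0.63 with library totals, under which the members' median was -0.74 and -0.66. Members share libraries and, in part, reads, so these counts are descriptions.

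Hist1h2ab, another H2A gene of the Hist1 cluster (ENSMUSG00000061615.2, chr13:23751126-23751598, plus strand), had the second lowest p among the members. Its level was 8.84, 11.6, 13.0 and 21.2 CPM in YKO and ran from 0.725 through 2.55 to 8.76 CPM in OKO. After TMM the groups did not overlap, OKO2 coming closest, and the log2 fold change was -1.90 ± 0.52 (edgeR adjusted p = 0.0714). Hist1h3h was the only other member without overlap in this direction on that scale, and 1.48% of all genes were so ordered. With library totals alone both overlapped, OKO2 lying above YKO2 for Hist1h2ab and OKO1 above YKO4 for Hist1h3h. The TMM factors were 1.24 in OKO2 and 0.957 in YKO2. Hist1h4i, an H4 gene (ENSMUSG00000060639.5, chr13:22040636-22041362, minus strand), was at 6.77 to 12.4 CPM in YKO and 3.48 to 7.64 CPM in OKO, with a log2 fold change of -0.84 ± 0.24 (edgeR adjusted p = 0.0872).

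The most abundant members of H4, H2B and H1 had smaller log2 fold changes between OKO and YKO. Hist1h4d was at 42.9, 46.9, 66.4 and 94.5 CPM in YKO and 31.5 to 103 CPM (median 52.4) in OKO, a log2 fold change of -0.10 ± 0.27. It lies at chr13:23581598-23582735 on the plus strand (ENSMUSG00000061482.7). Hist1h2bc was at 18.4 to 35.3 CPM in YKO and 9.57 to 30.4 CPM in OKO, at -0.25 ± 0.23. Hist1h1c, a linker histone gene, was at 27.0 to 35.2 CPM in YKO and 13.7 to 47.3 CPM in OKO, at -0.32 ± 0.26. Hist1h1e, the highest linker histone gene in CPM, was at 35.9 to 57.9 CPM in YKO and 12.6 to 54.4 CPM in OKO, with 5 of 7 OKO libraries below every YKO library, at -0.62 ± 0.30. None of these 4 passed, and their edgeR adjusted p-values were 0.873, 0.61, 0.565 and 0.309.

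**Figure D3:**
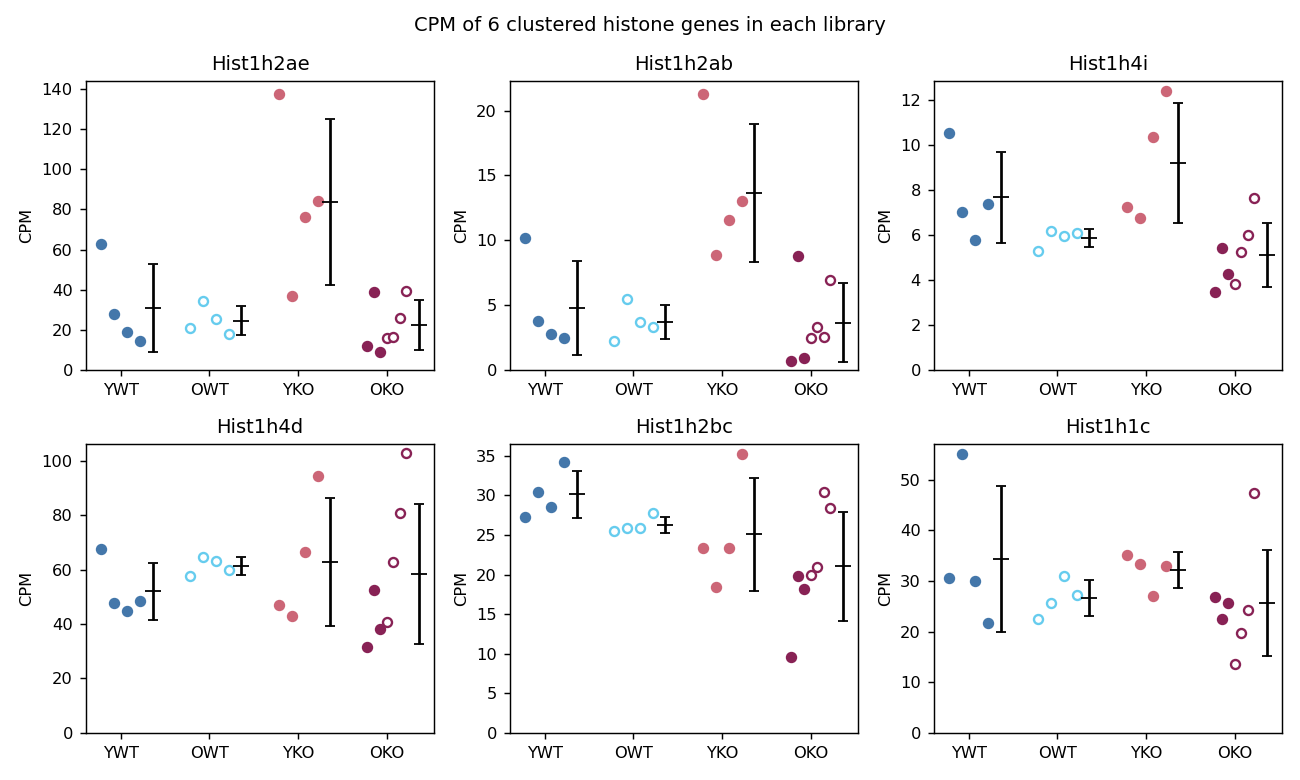
CPM (vertical axis, from 0) of 6 members in each library, by group (horizontal axis). Points are libraries, open where the title carries the prefix IB15, with the group mean and SD beside them. Hist1h2ae and Hist1h2ab are high in YKO, Hist1h4i is lower in most OKO libraries than in YKO, and Hist1h4d, Hist1h2bc and Hist1h1c overlap widely between all groups.

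With OKO held to OKO1 to OKO3, which like all YKO libraries lack the prefix IB15, more members passed. In that fit, which kept all YWT, OWT and YKO libraries, 22 of 63 members were called, all lower. Beside them, 11.6% of 35140 genes were called lower and 6.24% higher. The 22 were 1 H1, 8 H2A, 6 H2B, 3 H3 and 4 H4 members, and the median log2 fold change of all 63 was -1.46. With the prefix as a covariate, 20 members were called lower, beside 13.4% of all genes lower and 5.7% higher. Only OKO holds libraries of both kinds, so the covariate is set by OKO1 to OKO3 against OKO4 to OKO7 alone. Its OKO vs YKO contrast rests on OKO1 to OKO3 again, here and below, and is not an independent second alternative. OKO1 to OKO3 are also the 3 OKO libraries with the most olfactory and vomeronasal receptor reads (508 to 1502 CPM, against 225 to 310 CPM in OKO4 to OKO7), and the part of these reads in the result was not tested. OKO4 to OKO7 averaged 319 ± 159 CPM (SD) over all members, against 212 ± 54.3 CPM in OKO1 to OKO3, and the 2 sets of OKO libraries overlapped. This order depends on the scaling, as the TMM factors were 1.83, 1.24 and 1.41 in OKO1 to OKO3 and 0.793 to 1.02 in OKO4 to OKO7. As a share of library counts, the members took 0.0318%, 0.0341% and 0.0263% in OKO1 to OKO3. In OKO4 to OKO7 they took 0.0178%, 0.0188%, 0.0347% and 0.0420%.

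In young HSCs, the loss of GADD45B was addressed by YKO vs YWT, in which no member was called. Over all genes 0.0208% were called higher and 0.00594% lower. DESeq2 called no member either, beside 0.226% of all genes higher and 0.178% lower. Hist1h2ae was at 14.6, 18.9, 27.7 and 62.7 CPM in YWT, so that YKO1, YKO3 and YKO4 lay above every YWT library and YKO2 between them, and its log2 fold change was 1.43 ± 0.48 (edgeR adjusted p = 0.727). Hist1h2ab was at 2.47, 2.81, 3.76 and 10.2 CPM in YWT, with YKO2 below YWT1, and its log2 fold change was 1.51 ± 0.61 (edgeR adjusted p = 0.931). These were the 2 members with an unadjusted p under 0.05, beside 1.91% of all genes higher at that level. After TMM, Hist1h1e, Hist2h2ac and Hist2h3c2 were higher in every YKO library than in every YWT library, 4.76% of the members beside 2.12% of all genes. With library totals alone YKO1 lay below YWT1 for Hist1h1e and below YWT3 for Hist2h3c2, which averaged only 0.104 CPM over all libraries. For Hist1h1e the values were 22.9, 29.2, 33.9 and 34.9 CPM in YWT and 35.9, 38.9, 45.1 and 57.9 CPM in YKO, and the log2 fold change of 0.56 ± 0.34 did not pass (edgeR adjusted p = 1).

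Of the 63 members, 47 had a log2 fold change above 0 in YKO vs YWT, beside 48.1% of all genes, and the median was 0.50, beside -0.02. Among the 38 with a mean of at least 1 CPM, 25 lay above 0 and the median was 0.27. Without YWT1 the median of all members was 0.88. The leading linker histone gene after Hist1h1e and Hist1h1c was Hist1h1b, at 5.41 to 16.1 CPM in YWT and 15.6 to 34.6 CPM in YKO. Hist1h2ao was at 4.77 to 11.3 CPM in YWT and 5.10 to 47.9 CPM in YKO, where YKO1 lay far above the other 3, of which the highest was at 15.2 CPM. Its near copy Hist1h2ap reached 15.1 CPM in YKO1 and 18.9 CPM in YKO4. Hist1h2bc and Hist2h2be, the leading H2B genes, had log2 fold changes of -0.26 ± 0.26 and 0.07 ± 0.30.

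Aging in wild-type HSCs, OWT vs YWT, gave no called member either, beside 0.00297% of all genes called higher and 0% lower. With DESeq2 no member was called, beside 0.303% higher and 0.098% lower. The 2 members of lowest p were H4 genes. Hist1h4h was at 2.22, 2.34, 2.87 and 3.21 CPM in YWT and 1.00, 1.05, 1.26 and 1.90 CPM in OWT, groups that do not overlap, with a log2 fold change of -1.03 ± 0.47 (edgeR adjusted p = 1, unadjusted 0.0399). It was the 1 member at an unadjusted p under 0.05, beside 1.74% of all genes lower at that level. Hist1h4f, near the detection limit at 0.116 to 0.73 CPM in YWT and 0.0566 to 0.259 CPM in OWT, had -1.53 ± 0.80 (edgeR adjusted p = 1). Hist1h2bm was the other member lower without overlap, and 1.9% of all genes were so ordered. Below 0 lay 55 of 63 members, beside 54.3% of all genes, with a median of -0.37, beside -0.05.

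Between old knockout and old wild-type HSCs, OKO vs OWT, the direction of the members depended on the fit. No member was called, beside 0.0148% of all genes called higher and 0.0178% lower, and DESeq2 also called none, beside 0.163% and 0.0534%. Above 0 lay 33 members, beside 55.9% of all genes, and the median was 0.02, beside 0.12. No member was without overlap, beside 0.46% of all genes higher and 0.359% lower. With upper-quartile scaling or library totals 48 of 63 lay above 0, with the median of all genes then at 0.36 and 0.46. Hist2h2be, the H2B gene in which no stem-loop was found, had the lowest p. It was at 7.28, 7.87, 7.91 and 11.5 CPM in OWT and 2.64 to 7.98 CPM (median 6.07) in OKO, a log2 fold change of -0.62 ± 0.26 (edgeR adjusted p = 0.592, unadjusted 0.0266), and 2.23% of all genes were lower at an unadjusted p under 0.05. The second was Hist1h2be at 0.59 ± 0.31 (edgeR adjusted p = 0.592), with 1.42 to 2.87 CPM in OWT and 1.94 to 4.77 CPM in OKO, where the highest values were those of OKO1 and OKO3. With OKO held to OKO4 to OKO7, which share the prefix IB15 with OWT, no member of 62 tested was called, beside 0.0434% of all genes higher and 0.0367% lower. In that fit, which kept the YWT and YKO libraries, 47 lay above 0 with a median of 0.36, beside 0.03 over all genes. With the prefix as a covariate, which rests on the same contrast of OKO4 to OKO7 with OWT, 45 of 63 lay above 0, with a median of 0.36, beside 0.01.

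The difference between the effect of age in knockout and in wild-type HSCs was tested itself. No member and no other gene (0%) had an adjusted p under 0.05 for this interaction. At an unadjusted p under 0.05 there were 2 members, beside 4.62% of all genes. Hist1h2ae had an interaction of -1.56 ± 0.63 on the log2 scale (edgeR adjusted p = 0.811), from log2 fold changes with age of -1.89 in knockout and -0.33 in wild-type HSCs, and Hist4h4, the single gene of the Hist4 cluster, had 1.12 ± 0.51 (edgeR adjusted p = 0.811). Hist4h4 ran from 2.56 to 4.29 CPM in YWT, 0.963 to 3.41 CPM in OWT, 1.60 to 2.60 CPM in YKO and 1.71 to 4.197 CPM in OKO.

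Members with short annotated ends varied between libraries far more than those with long ones. The 39 short-end members summed to 105.8, 73.2, 48.3 and 40.5 CPM in YWT1 to YWT4, to 28.6 to 86.6 CPM in OWT, to 72.4 to 175 CPM in YKO and to 11.8 to 176 CPM in OKO, a range of 14.96-fold over the 19 libraries. The 28 long-end members summed to between 145 and 401 CPM, a range of 2.76-fold. Both ranges are after TMM, with factors of 1.41 in OKO3 and 0.793 in OKO7, the lowest and highest libraries of the short class. With library totals the short-end range was narrower but still wider than the long-end one. The short-end members gave 27.0% ± 3.7 (SD, n = 4) of the summed level in YKO and 17.2% ± 9.3 (n = 7) in OKO. Of the 36 short-end members tested, 34 lay below 0 in OKO vs YKO with a median log2 fold change of -1.13, and of 25 long-end members 20 did, with a median of -0.62. In YKO vs YWT, 32 of 36 short-end members lay above 0 with a median of 0.70, and 13 of 25 long-end members with a median of 0.07. Since the classes were formed after the values were known, no test is given. Of the 22 members called with OKO1 to OKO3 alone, 17 belonged to the short class and 5 to the long class.

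**Figure D4:**
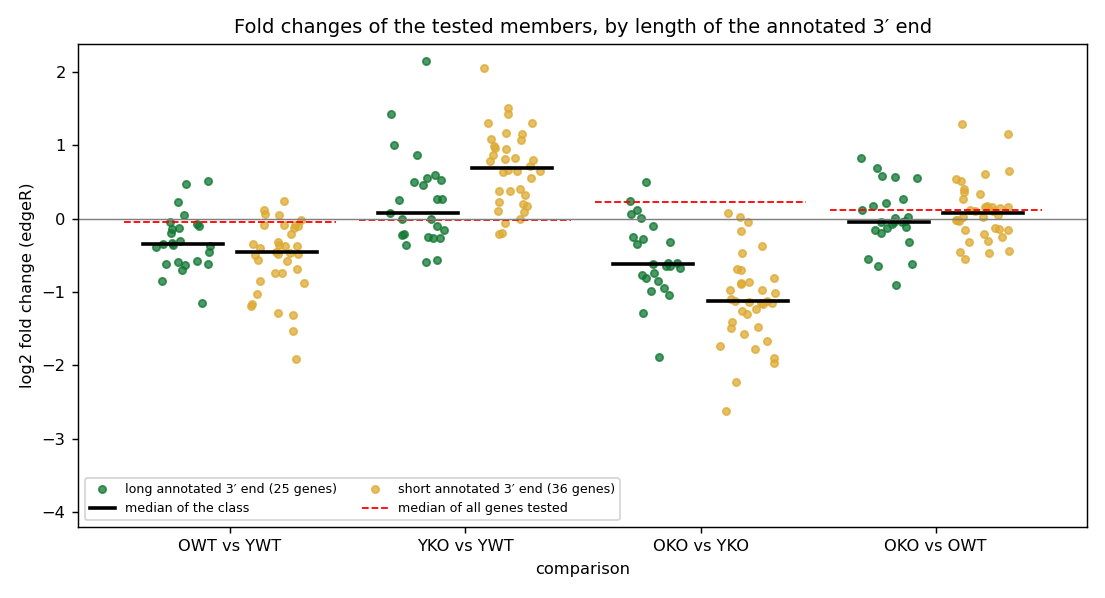
Log2 fold change (vertical axis, edgeR) of the 61 tested protein-coding members in 4 comparisons (horizontal axis), by length of the annotated 3′ end. Each point is a member, black bars are class medians and dashed lines are medians over all genes tested. In OKO vs YKO the short-end members centre on -1.13 and the long-end members on -0.62, both under the median of all genes at 0.23.

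Most H2A and H2B members stand head to head, and the annotation holds 14 such pairs whose starts lie 172 to 305 bases apart. The stretch between Hist1h2ae and Hist1h2bg, which would hold the promoters of both, is shown because Hist1h2ae was the called member, and that between Hist1h2ac and Hist1h2bc because Hist1h2bc was the highest H2B member. Both are on the plus strand of GRCm38.p6, 5′ to 3′, reading from the H2A start to the H2B start, and capitals mark the motif CCAAT, the TATA box TATAAA and the octamer ATTTGCAT on either strand, a match on the minus strand appearing as its reverse complement.
Hist1h2ae to Hist1h2bg, chr13:23571221-23571395: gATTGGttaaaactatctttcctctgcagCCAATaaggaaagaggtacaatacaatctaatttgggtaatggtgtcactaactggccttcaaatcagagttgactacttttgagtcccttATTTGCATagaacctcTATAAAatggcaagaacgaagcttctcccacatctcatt
Hist1h2ac to Hist1h2bc, chr13:23683949-23684198: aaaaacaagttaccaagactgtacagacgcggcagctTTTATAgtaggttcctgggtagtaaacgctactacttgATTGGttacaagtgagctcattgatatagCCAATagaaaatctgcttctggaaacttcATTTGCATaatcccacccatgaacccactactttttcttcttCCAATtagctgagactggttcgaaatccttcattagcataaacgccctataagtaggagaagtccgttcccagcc
The pairs were not read out evenly. Per kilobase, the H2A gene was higher in 12 of 14 pairs, at 53.5 CPM per kilobase for Hist1h2ae against 7.02 for Hist1h2bg, and the exceptions were Hist1h2ac (4.15) with Hist1h2bc (21.6) and Hist1h2ah (1.19) with Hist1h2bk (1.35). The 12 include Hist1h2aa (0.0299) with Hist1h2ba (0.0251), both near 0, and pairs with the pseudogenes Hist1h2aj and Hist3h2bb-ps. In another, Hist1h2ao (19.01) stands with Hist1h2bq (0.0266), which shares 99.7% of its 50-base stretches with another member. The part of shared reads and annotated length in these ratios was not tested. Both members were tested in 12 pairs, and in 11 of them both lay below 0 in OKO vs YKO. In Hist1h2ae and Hist1h2bg the log2 fold changes were -1.89 and -0.60 there, and 1.43 and -0.24 in YKO vs YWT.

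The same motifs were counted, on both strands, in the RefSeq promoters (GRCm38.p6) of 62 members matched by gene ID, each from 250 bases before to 50 bases after the start. CCAAT, the site of the factor NF-Y, was in 85.5% of them and in 37.9% of all 27025 promoters. It was in every matched H1, H2A, H2B and H3 member and in 25.0% of the H4 members. TATAAA was in 56.5% and 14.2%, and ATTTGCAT, the octamer bound by OCT1, was in 13 of the 62 and in 1.8% of all. These 13 were H2A or H2B genes. AAACACA, known as an element of H1 promoters, was in 5 of 6 H1 members (83.3%), in 4 H2A and H2B members, and in 7.1% of all promoters. A pair with a shared stretch can count once for each member, and a match describes letters only.

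Slbp and Npat, which act on these mRNAs and genes directly, were counted well above most members. Slbp was at 118 to 171 CPM in YWT, 99.9 to 134 CPM in OWT, 148 to 235 CPM in YKO and 43.7 to 185 CPM in OKO. The lowest values, 43.7 and 56.0 CPM, were those of OKO1 and OKO3. Its log2 fold change was -0.88 ± 0.28 in OKO vs YKO (edgeR adjusted p = 0.118), 0.41 ± 0.32 in YKO vs YWT (1), -0.30 ± 0.32 in OWT vs YWT (1) and -0.17 ± 0.28 in OKO vs OWT (0.805). It passed in none of the 4, and in 6 of 21 alternatives of OKO vs YKO. Npat was at 38.9 to 54.9 CPM in YWT, 29.8 to 49.4 CPM in OWT, 35.6 to 62.2 CPM in YKO and 30.7 to 53.4 CPM in OKO, with log2 fold changes of -0.35 ± 0.20 in OKO vs YKO (edgeR adjusted p = 0.396), 0.09 ± 0.23 in YKO vs YWT (1), -0.29 ± 0.23 in OWT vs YWT (1) and 0.03 ± 0.20 in OKO vs OWT (0.952).

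No gene of the 32 listed for transcription and 3′ end processing of histone mRNAs, which includes both, passed in the fit of all libraries. In OKO vs YKO with OKO1 to OKO3 only, 18 of the 32 passed, all lower, as did 18 with the prefix as a covariate. Of all genes, 11.6% and 13.4% were called lower in these fits and 6.24% and 5.7% higher. The same shares stand beside the other lists of this paragraph. With all libraries 29 of them lay below 0 there, with a median log2 fold change of -0.38, and in YKO vs YWT 25 lay above 0, with a median of 0.08, where 16 did with library totals alone. Histone chaperones, which carry new histones to DNA, had none of 20 passing, with 19 below 0 in OKO vs YKO (median -0.54) and 19 above 0 in YKO vs YWT (median 0.23). With OKO1 to OKO3 only 14 of the 20 were called lower, and 15 with the prefix as a covariate. Among 11 replacement and variant histone genes outside the clusters none passed, and 8 lay below 0 in OKO vs YKO (median -0.44). Upper-quartile scaling and library totals each called 1 lower there, and both OKO1 to OKO3 only and the prefix as a covariate called 7 lower and 1 higher.

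The replacement genes for H3 were far above the clustered H3 members, while the ranges overlapped for H2A. Per kilobase, H3f3a and H3f3b together came to 355 to 937 CPM and the 12 clustered H3 members to 8.78 to 42.5 CPM, so that the ratio was between 15.6 and 71.3 in single libraries. H2afz and H2afv came to 107 to 537 CPM per kilobase, and the 20 clustered H2A members to 31.9 to 450 CPM per kilobase. How much of this gap follows from priming on poly(A) was not tested.

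After TMM, genes of DNA replication stood highest in the same 5 libraries as the members, and lowest in the same libraries as the short-end members. The list of 29 S phase genes, among them the Mcm genes of the replicative helicase, Pcna and Slbp, had no called gene in the fit of all libraries. In OKO vs YKO, 22 of the 29 were called lower with OKO1 to OKO3 only and 22 with the prefix as a covariate, and 1 with either other scaling. Of all genes, 11.6% were called lower with OKO1 to OKO3 only and 13.4% with the covariate. All 29 lay below 0 in OKO vs YKO (median log2 fold change -0.93) and in OWT vs YWT (median -0.39), 28 lay above 0 in YKO vs YWT (median 0.40), and 27 lay below 0 in OKO vs OWT (median -0.13), where 13 did with either other scaling. Their summed level was 5450 CPM or more in YWT1, YKO1, YKO3, YKO4 and OKO7, and at most 4480 CPM in the other 14 libraries. The same 5 libraries were the 5 highest for the summed level of all members, of the long-end members and of the short-end members. OKO1 and OKO3 had the lowest sums of S phase genes, 1040 and 1081 CPM, and the lowest sums of short-end members, 14.4 and 11.8 CPM. The lowest sums of all members and of long-end members, 174 and 145 CPM, were those of OKO4, whose S phase genes summed to 3355 CPM. All these orders are after TMM, with factors of 1.83 in OKO1, 1.24 in OKO2 and 0.793 in OKO7. With library totals, OKO7 lay below OKO2 and YWT3 in S phase genes and below OKO1 in long-end members. On that scale OKO1 lay above OKO5 and OWT1 in short-end members. These values stand side by side, and the part of cell cycle in the members' differences was not tested.

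**Figure D5:**
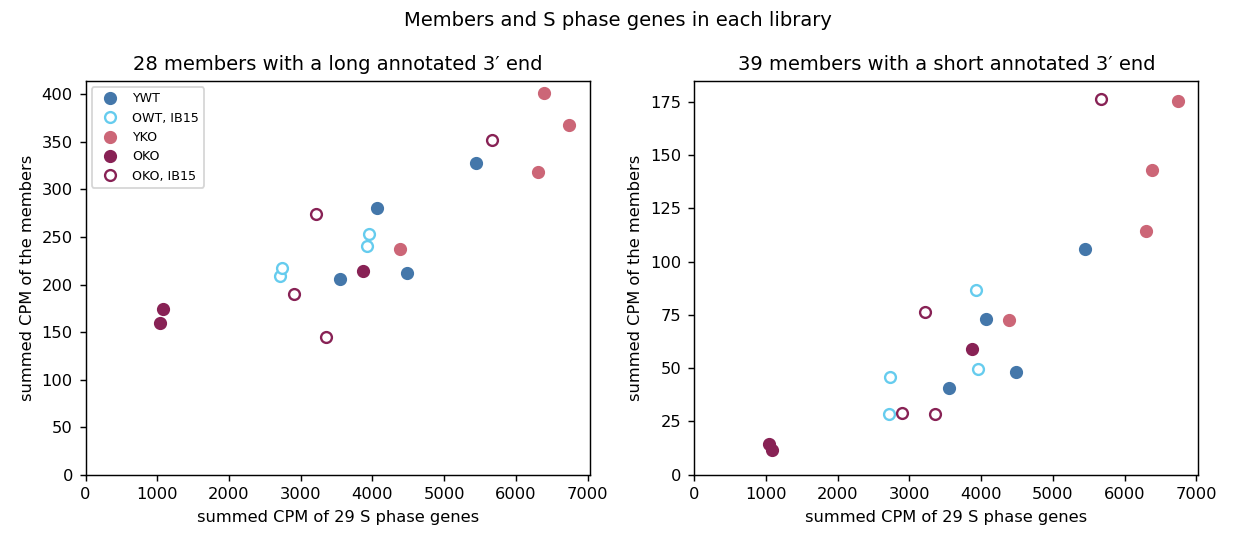
Summed CPM of the members (vertical axes) against summed CPM of 29 S phase genes (horizontal axes), for 28 long-end members (left) and 39 short-end members (right). Each point is a library, coloured by group and open where the title carries the prefix IB15. The short-end members run from 11.8 CPM in OKO3 to 176 CPM in OKO7, and the 5 libraries with 5450 CPM or more of S phase genes are the highest in both panels. All values are after TMM.

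Markers of other blood cells differed between the same libraries. Erythroid markers summed to 678 to 2095 CPM in YWT, 180 to 952 CPM in OWT, 1636 to 4731 CPM in YKO and 40.4 to 2575 CPM in OKO, with the highest OKO value in OKO7, and 4 of 8 were called lower in OKO vs YKO (the globin genes Hba-a1, Hba-a2, Hbb-bs and Hbb-bt). B cell markers summed to 192 to 1470 CPM in YKO and 27.6 to 202 CPM in OKO, and 5 of 8 were called lower there, among them Cd22, Ebf1, Ms4a1 and Pax5. Of 6 T cell markers, 2 were called lower (Cd3e and Cd4), with sums of 24.8 to 113 CPM in YKO and 8.33 to 41.0 CPM in OKO. With OKO1 to OKO3 only, 4 erythroid, 7 B cell, 6 T cell, 3 plasma cell and 1 megakaryocyte markers were called lower and 1 HSC marker higher, and with the prefix as a covariate 5, 8, 6, 4 and 2 were lower. Of all genes, 11.6% were called lower in the former fit and 13.4% in the latter. In the fit of all libraries no marker of granulocytes, megakaryocytes, plasma cells or HSCs passed, though upper-quartile scaling called 2 HSC markers higher in OKO vs YKO, and no marker was at 0 in all libraries. Plasma cell markers were very uneven between libraries, at 25419 CPM in YWT2, 12766 in YKO2 and 8146 in YKO1. They summed to 33.4 to 108 CPM in OKO1 to OKO3 and 192 to 3868 CPM in the remaining libraries. The part of plasma cell transcripts in the members' differences was not tested. All 8 erythroid, 8 B cell and 6 T cell markers lay above 0 in YKO vs YWT without passing. Of the 10 HSC markers 9 lay below 0 there (median log2 fold change -0.42) and 9 above 0 in OKO vs YKO (median 0.49). Erythroid precursors and B cell progenitors are dividing cells that use clustered histone genes themselves. The lineage stain given in the study's methods holds Ter119, B220, CD3 and IL7ra and would remove cells that carry them, and the part of such cells in the members' differences was not tested.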

How the data were processed

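RNA-seq of HSCs gave 19 libraries with groups taken from the labels. Per the labels and the study's methods, the authors trimmed reads with Trim Galore 0.4.3 and cutadapt, aligned them with STAR to mm10 with an index from GENCODE M22, and deposited raw featureCounts counts per gene symbol, 1 file a library. How strand, read mates and multiply mapped reads were counted is not given in the sources used here, and in all 19 libraries more genes had a count of 2 than of 1. Bisulfite sequencing of 10 further samples was not analysed here.

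Counts were tested with edgeR 4.0.16 (R 4.3.3) by the quasi-likelihood test with TMM factors and filterByExpr, with all libraries fitted jointly by their group. Benjamini-Hochberg adjustment ran over all 33690 genes tested, and calls took the study's thresholds, 0.05 for adjusted p and 1.5 for fold change. The ± after a log2 fold change is its SE. Library totals of 22197555 to 77970627 counts (median 57562473) gave the members 8676 to 31777 counts per library, and low members carry more counting error. No 2 libraries of a group were identical. The test was run on simulated counts with known changes first.

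Members were matched to GENCODE M21 for length, position and 3′ ends, and to RefSeq promoters. The members and all gene lists were chosen with earlier results of these data known. In each type the text names the 4 members of highest mean CPM, and in each comparison the called members and the 2 of lowest p, and members at 0 throughout. Of other genes it names called ones of the lists, Slbp and Npat. Some marker genes are not reported here by name. Hist1h2aa, Hist1h2ah, Hist1h2al, Hist1h2ba, Hist1h2bk, Hist1h2bm, Hist1h2bq, Hist1h3g, Hist1h3h, Hist1h1t, Hist1h4a, Hist2h2aa1, Hist2h2ac, Hist2h3c2, Hist1h2aj, Hist3h2bb-ps, H3f3a, H3f3b, H2afz and H2afv were named after their values were seen.

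Alternatives were DESeq2 1.42.0, upper-quartile scaling, library totals, other filters on low counts, fits of the compared groups alone, the prefix as a covariate, a replicate block, and leaving out each library. A fit without the library of most receptor reads in each compared group was added after seeing the data.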

Additional observations from a re-analysis of the deposited data

Results flagged for a closer look

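Single libraries stood apart from the rest of their group, by the gap to the nearest library over the range of the group, in 9 of 156 combinations of a quantity and a group, where chance gives about 1 in 20. OKO7 was the high one in 6 of the 9. Within OKO it was highest for the summed level of H3 members, at 25.2 CPM against 14.3 CPM in the next library, and for the short-end members, at 176 against 76.4 CPM. It was highest too for the sum without the 5 most abundant members, at 257 against 144 CPM. Among single members this held for the linker histone genes Hist1h1c (47.3 against 26.9 CPM) and Hist1h1b (40.7 against 13.8 CPM) and for Hist1h3d (7.10 against 3.20 CPM). In OWT, OWT2 stood apart for Hist2h2be, at 11.5 CPM against 7.91 CPM in the next library. In YWT, YWT1 stood apart for Hist1h4d, at 67.6 against 48.5 CPM, and for Hist1h2ab, at 10.2 against 3.76 CPM.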

How the results depend on the processing

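No member was called in any of the 18 alternatives of OWT vs YWT, the 18 of YKO vs YWT, the 22 of OKO vs OWT or the 26 of the interaction. In OKO vs YKO, where 1 member was called, the count was 0 with only the groups compared, 2 with no filter on low counts, 3 with a mean CPM of at least 1, 5 with DESeq2, 20 with the prefix IB15 as a covariate, 22 with only the OKO libraries without the prefix, and 0 to 15 leaving out 1 library each. Upper-quartile scaling, library totals and the fit without the libraries of most receptor reads, the last chosen after seeing the data, left it at 1. For the filters and the fits without 1 library, the share of all genes called is not given beside the counts. The counts of 20 and 22 rest on the same contrast of OKO1 to OKO3 with YKO. The median log2 fold change of the members in OKO vs YKO was -1.53 with the prefix as a covariate, -1.46 with the OKO libraries without the prefix and -1.22 to -0.70 leaving out 1 library each. In OWT vs YWT it was -0.57 to -0.14 leaving out 1 library. It was -1.34 there with the prefix as a covariate, a value that takes the prefix shift from the OKO libraries, since age and prefix cannot be told apart in wild-type HSCs. In YKO vs YWT it was 0.24 where members under a mean of 1 CPM were left out and 0.32 to 0.88 leaving out 1 library, with 0.88 without YWT1. In OKO vs OWT it was -0.37 to 0.20 leaving out 1 library. The ratios of summed CPM kept their sign in all alternatives but those of OKO vs OWT, where 8 of 15 did. The causes were not tested.

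Groups share replicate numbers, but the labels do not say that a number marks a shared origin. Deviations from the group mean correlated at -0.450 to 0.273 between same-numbered libraries over 16 pairs. Such correlations cannot decide whether these libraries share an origin. With a replicate block, 14 members were called lower in OKO vs YKO (median -1.63), beside 3.46% of all genes, and the median in OKO vs OWT was -0.78. It gave no call of a member in the other comparisons. The numbers 5 to 7 exist only in OKO, so the block fits those 3 libraries by themselves. Depth limits most the 32 members below a mean of 1 CPM.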
